A study of Mus musculus with 6 samples.

Results

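Sox9, Lhx2, Nfatc1, Tcf7l1, Runx1, Nfib, Nfia, Foxc1 and Foxi3, which encode transcription factors of hair follicle stem cells and their precursors, and the surface marker gene Cd34 were followed in sorted follicle cells of newborn mice. The 10 genes were chosen by symbol from the 24453 symbols of the count files, with earlier results of these data known. RNA sequencing covered 3 libraries of the genotype Ring1a-/- Ring1b-/I53A (HF_I53A, here the mutant libraries) and 3 of a genotype labelled only as control (HF_CTL), all from back skin at postnatal day 0. Ring1a and Ring1b, encoded by Ring1 and Rnf2, are the ubiquitin ligases of Polycomb repressive complex 1, and the I53A form of Ring1b ubiquitinates histone H2A poorly. The mutant genotype joins loss of Ring1a, a null allele of Ring1b and the I53A allele, and no library separates them. The labels name no Cre driver, and they do not say whether the 3 libraries of a group came from separate animals. The p-values therefore measure the spread between these libraries, part of which may be technical.

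Hair follicles grow from placodes of the embryonic epidermis, and cells set aside during their downgrowth become the stem cells of the later bulge. Sox9 and Lhx2 are needed to form and keep these cells, Tcf7l1 holds Wnt target genes in check, and Nfatc1 and Foxc1 keep adult stem cells quiescent, while Runx1 promotes their activation. Nfib and Nfia belong to the nuclear factor I (NFI) family of DNA-binding proteins, of which NFIB is known to act with NFIX in keeping the chromatin of follicle stem cells. Foxi3 acts downstream of ectodysplasin signalling in placodes, and Cd34 marks the bulge of adult mouse follicles, where it appears only after birth.

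The labels call the cells hair follicle cells, whereas the protocol names only a gate for interfollicular epidermis that includes Sca1, so the gate behind these libraries is uncertain. Ly6a, the gene of Sca1, had a low level but passed the filter on low counts. It was at 1.23 ± 0.245 CPM (counts scaled to a common library size) in mutant and 0.851 ± 0.411 CPM in control libraries (SD, n = 3 each). All 7 follicle markers were detected, with summed levels of 1307 to 1524 CPM in mutant and 1218 to 1390 CPM in control libraries. The 6 interfollicular markers were detected too, at 2572 to 4225 CPM in mutant and 4009.6 to 5491 CPM in control libraries, most of it Krt1 and Krt10. Library totals lay between 14335156 and 18811587 counts, so that 1 CPM stood for 14.7 to 18.3 reads. Ring1 was at 3.23, 7.09 and 4.88 CPM in the mutant libraries, against 16.8, 22.1 and 21.1 CPM in the controls, and fell (adjusted p = 0.0113). Rnf2 was at 64.5 to 71.3 CPM in mutant and 55.7 to 67.8 CPM in control libraries and was not called (adjusted p = 0.736), and a gene count cannot show the I53A allele. The adjusted p-values here and below are from edgeR's quasi-likelihood test over all genes. Mast cell markers were highest in control 3, with a sum of 128 CPM against 8.28 to 49.1 CPM in the other libraries, and control 3 also had the highest sum of leukocyte markers.

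Runx1 and the related gene Runx3 each have a distal and a proximal transcription start that are unlike in sequence. RefSeq promoter sequences (GRCm38.p6, 250 bases before to 50 after a start) were found for 7 of the 10 genes, not for Sox9, Nfatc1 and Nfib. The starts of Runx1 and Runx3 are printed because the transcripts of these related genes behaved differently in the mutant libraries. That of Nfia is printed because its transcript was lower there. Each sequence is given 5′ to 3′ on the strand of its gene, with CpG dinucleotides in capitals.
Runx1 distal start, chr16:92826025-92826324, minus strand: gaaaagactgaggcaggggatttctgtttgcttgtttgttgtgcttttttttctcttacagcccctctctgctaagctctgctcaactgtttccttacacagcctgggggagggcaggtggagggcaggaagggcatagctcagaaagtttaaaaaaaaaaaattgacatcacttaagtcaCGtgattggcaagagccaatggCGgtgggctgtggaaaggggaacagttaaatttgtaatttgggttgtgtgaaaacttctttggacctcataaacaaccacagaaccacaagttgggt
Runx1 proximal start, chr16:92697280-92697579, minus strand: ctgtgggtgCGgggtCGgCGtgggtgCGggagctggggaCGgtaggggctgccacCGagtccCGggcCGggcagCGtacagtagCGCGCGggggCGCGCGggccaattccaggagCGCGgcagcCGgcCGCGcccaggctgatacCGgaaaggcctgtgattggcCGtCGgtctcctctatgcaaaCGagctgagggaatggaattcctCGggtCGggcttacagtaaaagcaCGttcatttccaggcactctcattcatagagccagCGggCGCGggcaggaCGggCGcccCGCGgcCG
Runx3 distal start, chr4:135120395-135120694, plus strand: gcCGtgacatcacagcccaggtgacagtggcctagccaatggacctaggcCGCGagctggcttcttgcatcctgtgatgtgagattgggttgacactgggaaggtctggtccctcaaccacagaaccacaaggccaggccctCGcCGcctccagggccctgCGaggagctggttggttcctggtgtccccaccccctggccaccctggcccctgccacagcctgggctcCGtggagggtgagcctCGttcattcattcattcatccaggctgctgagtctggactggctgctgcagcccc
Runx3 proximal start, chr4:135152295-135152594, plus strand: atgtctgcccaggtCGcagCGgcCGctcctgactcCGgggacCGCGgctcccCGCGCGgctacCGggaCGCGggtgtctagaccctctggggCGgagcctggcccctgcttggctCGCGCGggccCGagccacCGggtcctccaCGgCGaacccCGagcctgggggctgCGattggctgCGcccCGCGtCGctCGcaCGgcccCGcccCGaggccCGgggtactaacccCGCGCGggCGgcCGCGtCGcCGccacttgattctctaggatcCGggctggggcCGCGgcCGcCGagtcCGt
Nfia start, chr4:97581693-97581992, plus strand: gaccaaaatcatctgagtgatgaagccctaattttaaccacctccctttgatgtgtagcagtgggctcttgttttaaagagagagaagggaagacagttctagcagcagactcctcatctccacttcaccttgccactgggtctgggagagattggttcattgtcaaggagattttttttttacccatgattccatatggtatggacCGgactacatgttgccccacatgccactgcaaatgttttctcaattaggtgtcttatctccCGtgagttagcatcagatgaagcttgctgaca
The distal starts of Runx1 and Runx3 held 2 and 8 CpG dinucleotides, and the proximal ones, 128745 and 31900 bases further along, held 35 and 45. Both distal windows contained the RUNX core TGTGGT (searched on both strands) 2 times each, and neither proximal window contained it. The same core was found in 16.8% of the 32841 promoters of the table. The Nfia window, which lies 190791 bases before the start of the gene in the GENCODE annotation, held 2 CpG dinucleotides and 1 match to the TCF and LEF core CTTTGA, a match found in 16.0% of all promoters. Gene counts do not tell which start was used.
CpG dinucleotides were frequent at most of the other starts. An observed-to-expected CpG ratio above 0.6 was found at 6 of the 9 member promoters, among them the starts of Lhx2, Foxi3, Tcf7l1 and Foxc1, which is 66.7%, against 35.8% of all promoters of the table. This counts both starts of Lhx2 and of Runx1. Counting a single start per gene, the share was 69.3% over 10960 tested genes, a base unlike that of the 66.7%. The member starts below the limit were that of Nfia (0.134), the distal start of Runx1 (0.137) and that of Cd34. The Cd34 start had 7 CpG dinucleotides and a ratio of 0.374.

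The clearest difference among the 10 genes was in the nuclear factor I genes, whose transcripts were lower in the mutant libraries. Of the 9 genes that passed the filter on low counts, 2 were lower in mutants at an adjusted p under 0.05, Nfia and Nfib, and none was higher. Over all 14345 genes tested, 0.404% were called as lower (edgeR quasi-likelihood test, Benjamini-Hochberg adjustment over all genes, used throughout). The fitted log2 fold change was below 0 for 8 of the 9, all but Sox9, with a median of -0.28 against 0.00 over all genes tested. These contrasts are descriptive, as the genes were chosen with earlier results known. With library totals as the only scaling, or with a stricter filter, Foxi3 was above 0 as well and 7 of the 9 were below. Without control 2, Sox9, Foxi3 and Tcf7l1 were above 0, 6 of the 9 were below and the median was -0.10, while Sox9 was itself below 0 without mutant 3 or control 1. In bulk libraries such as these, fewer cells of a type and less RNA per cell cannot be told apart. With the replicate number as a block, Nfia and Nfib were again the 2 called among the 9, against 9.38% of all genes called and 3.29% called as lower. DESeq2 called both as well (adjusted p = 0.00082 for Nfia and 0.00254 for Nfib). It called 4.80% of 19993 genes in either direction, a larger base, as the filter on low counts was not applied before that fit.

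**Figure D1:**
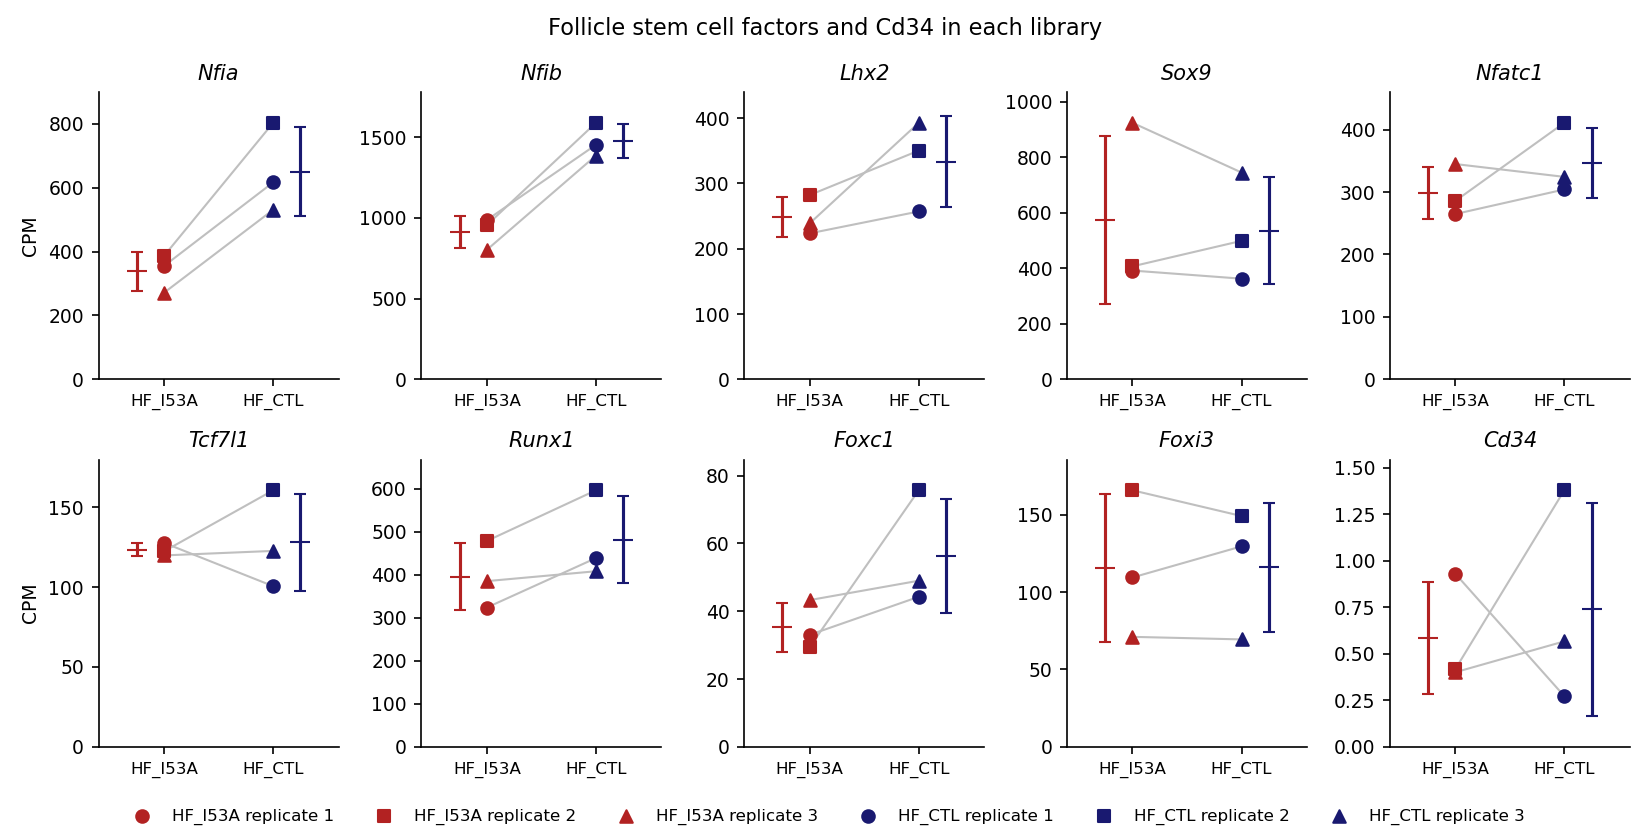
CPM of each of the 10 genes in every library, with mutant (HF_I53A) libraries on the left and control (HF_CTL) libraries on the right of each panel, bars for mean ± SD, and grey lines joining libraries of the same replicate number. All mutant libraries lie below all controls for Nfia, Nfib and Foxc1, and the groups overlap for the other 7 genes.

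Nfia (chromosome 4, 97772734 to 98118874, plus strand, GRCm38) had 355, 387 and 271 CPM in the mutant libraries 1 to 3, against 617, 803 and 531 CPM in the control libraries 1 to 3. The highest mutant library was below the lowest control. The mean was 338 ± 59.7 CPM in mutants and 650.3 ± 139 CPM in controls (SD, n = 3 each). The log2 fold change was -0.95 (SE 0.20, 95% interval -1.39 to -0.50, adjusted p = 0.0332). Between libraries of the same number the ratio of mutant to control was 0.576, 0.481 and 0.511. NFIA is best known as a factor of gliogenesis and haematopoiesis. Its transcript had 4060 to 6493 reads in mutant and 9061 to 12814 reads in control libraries.

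Nfib (chromosome 4, 82290173 to 82705750, minus strand) had the highest mean CPM of the 10 genes in both groups, with 988, 956 and 803 CPM in mutant libraries, against 1454, 1590.0 and 1387 CPM in controls. No mutant library reached the lowest control here either. The means were 915 ± 98.9 and 1477 ± 104 CPM in mutants and controls (SD, n = 3 each), with a log2 fold change of -0.69 (SE 0.15, 95% interval -1.03 to -0.36, adjusted p = 0.0396). Same-numbered ratios were 0.679, 0.601 and 0.579, so that each mutant library had less than its counterpart by a similar factor.

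Both adjusted p-values lay near the threshold, and each gene missed it in 5 of the 6 fits that left out a library, while the log2 fold changes stayed between -1.06 and -0.77 for Nfia and between -0.75 and -0.60 for Nfib. Nfia passed without control 3 (adjusted p = 0.0112) and lost its call without mutant 1 (0.108), mutant 2 (0.0791), mutant 3 (0.0804), control 1 (0.0959) or control 2 (0.104). Nfib likewise passed without control 3 (0.0332) and lost its call without mutant 1 (0.1095), mutant 2 (0.127), mutant 3 (0.113), control 1 (0.123) or control 2 (0.123). Nfib also missed the threshold with library totals as the only scaling (0.0630) and with a stricter filter (0.0559). Without control 3, the library with most mast cell transcript, the log2 fold changes of Nfia and Nfib were -1.06 and -0.72, against -0.95 and -0.69 with all libraries. Genes overlapping on the other strand had their own counts, 12 to 117 reads per library for Gm11266 at Nfib and at most 8 for E130114P18Rik at Nfia. The part of such reads in the counts of Nfib and Nfia was not tested. The summed interfollicular markers of mutants 1 and 3, mostly Krt1 and Krt10, also lay below those of every control, with none of the 6 called. The set did not move as 1, with 4 of the 6 fitted above 0 and 2 below (median log2 fold change 0.50). With the replicate number as a block, 1 was called as higher and 1 as lower. The 6 fibroblast markers overlapped, with sums of 654 to 922 CPM in mutants and 588 to 1023 CPM in controls. The part of mast cells, interfollicular cells or fibroblasts in the levels of Nfia and Nfib was not tested.

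The remaining NFI genes moved less. Nfic was at 227 ± 30.5 CPM in mutants and 286 ± 27.9 CPM in controls, and Nfix at 554 ± 7.88 and 632 ± 100.4 CPM (SD, n = 3 each). Neither was called (log2 fold changes -0.33 and -0.19, adjusted p = 0.364 and 0.641). All 4 NFI genes had a fitted value below 0 under every scaling tried. Divided by exonic length, the sum of the family was 258, 264 and 229 CPM per kilobase in mutant libraries, against 341, 412 and 340.4 CPM per kilobase in controls, without overlap between the groups. The share of Nfix in that sum was 31.6%, 30.4% and 36.1% in mutants and 23.5%, 26.5% and 26.4% in controls, while the share of Nfia was 12.4% to 15.4% in mutants and 16.4% to 20.45% in controls. The family thus had a lower summed level in every mutant library and a larger part of it from Nfix. Whether the fold changes of the 4 genes differ from one another was not tested.

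**Figure D2:**
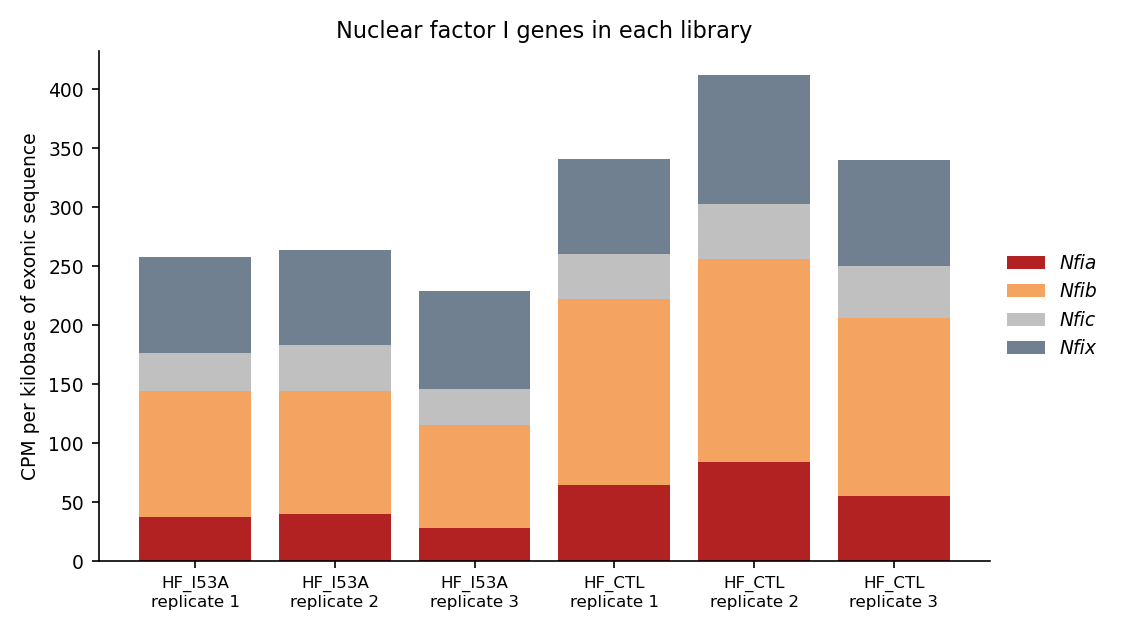
Level of the 4 nuclear factor I genes in each library, stacked, in CPM per kilobase of exonic sequence, mutant (HF_I53A) libraries on the left and control (HF_CTL) libraries on the right. The stacks reach 229 to 264 in mutant and 340.4 to 412 in control libraries, with most of the difference in the Nfia and Nfib segments.

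Outside the 10 genes, Ncapg2, Mtfr2 and Kntc1 had the pattern most like that of Nfia, which had the smallest p of the members. Over the 6 libraries their mean-centred log2 CPM differed from that of Nfia by a root mean square of 0.0680, 0.0787 and 0.0828. Ncapg2, a condensin subunit gene, was at 65.1 ± 14.5 CPM in mutants and 121 ± 20.4 CPM in controls (SD, n = 3 each). Kntc1, a kinetochore gene, was at 38.3 ± 9.56 CPM in mutants and 77.4 ± 16.7 CPM in controls, and Mtfr2 at 10.0005 ± 2.30 CPM in mutants and 18.8 ± 3.22 CPM in controls. The likeness includes the difference between the groups, so these levels describe the choice and no p-value is given for them.

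Foxc1, a forkhead factor that restrains activation of bulge stem cells, was lower in every mutant library without being called. Its levels (chromosome 13, 31806633 to 31812476) were 33.0, 29.4 and 43.3 CPM in mutant libraries, against 44.2, 75.7 and 49.0 CPM in controls. The highest mutant and lowest control differed by about 1 CPM, and control 2 stood above the rest. The log2 fold change was -0.68 (SE 0.25, 95% interval -1.23 to -0.12, adjusted p = 0.227), and -0.41 without control 2. Of the 9 tested genes, 3 did not overlap between groups, Nfia, Nfib and Foxc1, all lower in mutants. Over all genes tested, 21.2% did not overlap and 9.15% were lower without overlap.

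Lhx2, a LIM homeobox factor that keeps follicle stem cells from differentiating, had 224, 282 and 239 CPM in mutant libraries, against 257, 350.3 and 393 CPM in controls. Mutant 2 was above control 1, so the groups overlapped, although each mutant library was below its same-numbered control (ratios 0.870, 0.805 and 0.608). Its log2 fold change of -0.43 (SE 0.18, 95% interval -0.84 to -0.01) was not called (adjusted p = 0.316). The gene lies on chromosome 2, 38339281 to 38369733. Runx1 (chromosome 16, 92601466 to 92826149) was also below its counterpart in all 3 number pairs, at 324 to 478 CPM in mutants and 408 to 596 CPM in controls, and was not called (log2 fold change -0.28, 95% interval -0.72 to 0.16, adjusted p = 0.583). Its value was -0.10 without control 2, -0.15 without mutant 1 and -0.44 without mutant 2.

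Sox9, the first of these factors to mark the future stem cells in the placode, showed more variation within the groups than between them. Its levels (chromosome 11, 112782224 to 112787760) were 392, 407 and 924 CPM in mutant libraries, against 362, 499 and 745 CPM in controls. Replicate 3 was the highest library of each group. The mean was 574 ± 303 CPM in mutants and 535 ± 194 CPM in controls (SD, n = 3 each). The log2 fold change was 0.10 (SE 0.35, 95% interval -0.69 to 0.89, adjusted p = 0.937). With the replicate number as a block the value was 0.04 (SE 0.12, adjusted p = 0.868). Leaving out 1 library moved the value between -0.43 without mutant 3 and 0.43 without control 3, with no call in any of the 6 fits.

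Foxi3 also varied with the replicate number, but not in the order of Sox9. It was at 109 CPM, 166 CPM and 71.1 CPM in mutant libraries 1 to 3, against 129.5, 149 and 69.4 CPM in the same-numbered controls. Replicate 3 was the lowest and replicate 2 the highest of each group. The difference between genotypes was -0.01 on the log2 scale (SE 0.34, 95% interval -0.76 to 0.74, adjusted p = 0.995), and with the replicate number as a block its SE was 0.12. The gene lies on chromosome 6, 70956531 to 70961066. Epcam and Itga6, whose products were stained for the sort, were also highest in replicate 3 of each group, Epcam at 271 CPM in mutant 3 and 195 CPM in control 3. The part of the sort in these differences between replicates was not tested.

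Nfatc1, a calcineurin-responsive factor that keeps bulge cells quiescent, and Tcf7l1, a repressor of Wnt targets, overlapped between the groups. Nfatc1 (chromosome 18, 80606205 to 80713071) was at 265 to 345 CPM in mutants and 304 to 411 CPM in controls, with a log2 fold change of -0.22 (95% interval -0.60 to 0.17, adjusted p = 0.636), and of -0.08 without control 2, -0.14 without mutant 1 and -0.33 without mutant 3. Tcf7l1 (chromosome 6, 72626378 to 72789254) was at 119.9 to 128 CPM in mutants and 101 to 161 CPM in controls, with a log2 fold change of -0.05 (95% interval -0.47 to 0.36, adjusted p = 0.937). The Tcf7l1 values of the mutant libraries lay within 8 CPM of each other, inside the range of the controls.

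**Figure D3:**
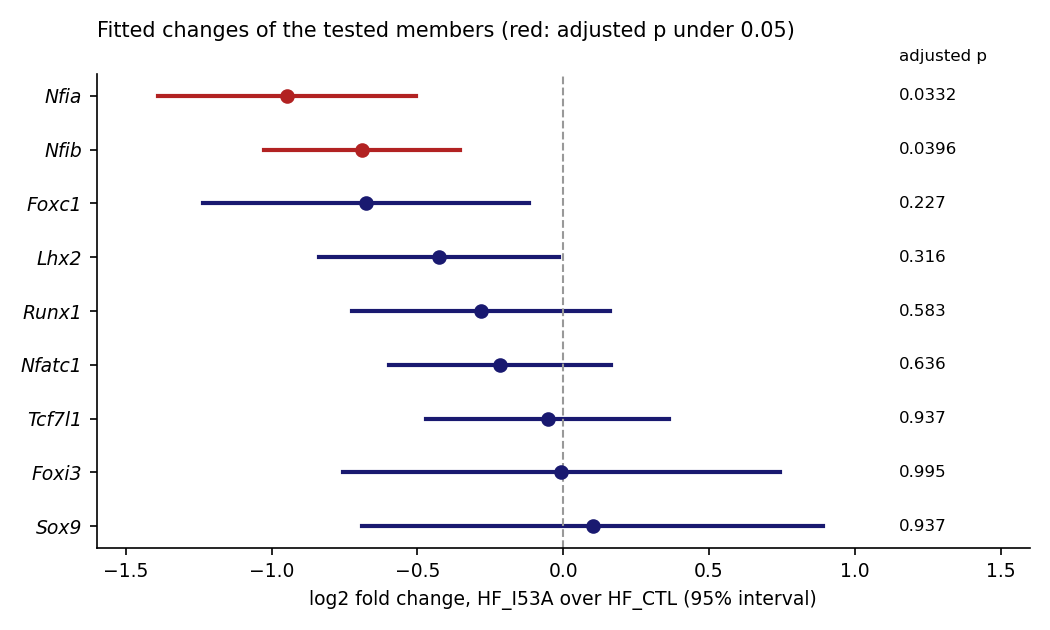
Fitted log2 fold change of HF_I53A over HF_CTL for the 9 tested genes, with 95% intervals as lines and the adjusted p of each at the right. The intervals of Nfia, Nfib, Foxc1 and Lhx2 lie below 0, and only Nfia and Nfib, in red, passed the adjusted threshold of 0.05.

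Cd34 was close to absent in both groups. The files held 17, 7 and 6 reads in mutant libraries and 4, 22 and 10 reads in control libraries, below the filter on low counts. The pooled levels were 0.5998 CPM in mutants (30 reads, exact 95% Poisson interval 0.405 to 0.856) and 0.746 CPM in controls (36 reads, 0.522 to 1.03), and these intervals cover counting error only. The intervals of the groups overlapped, and no difference was found in a fit without the filter (adjusted p = 0.927). Cd34 (chromosome 1, 194938819 to 194961279) is also transcribed in endothelial and mast cells. Endothelial markers summed to 14.5 to 34.8 CPM in mutant and 11.5 to 18.03 CPM in control libraries, highest in mutant 3, and Emcn had no read in controls 1 and 2. Mast cell markers summed to 8.28 to 49.1 CPM in mutant and 9.26 to 128 CPM in control libraries. Their part in the Cd34 reads was not tested.

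Per kilobase of exonic sequence, the genes spanned a wide range of levels. In mutant libraries the order by mean level was Sox9, Nfib, Foxi3, Lhx2, Runx1, Nfatc1, Tcf7l1, Nfia, Foxc1 and Cd34. Sox9 was at 139 ± 73.3, Nfib at 99.2 ± 10.7, Nfia at 35.4 ± 6.27 and Foxc1 at 6.03 ± 1.23 CPM per kilobase (SD, n = 3). Neighbours in this order overlapped in their libraries except Lhx2 above Runx1, Nfia above Foxc1 and Foxc1 above Cd34. In control libraries Nfib led with 159.97 ± 11.2 CPM per kilobase, followed by Sox9, Lhx2, Foxi3, Nfia, Runx1, Nfatc1, Tcf7l1, Foxc1 and Cd34. There the neighbours without overlap were Tcf7l1 above Foxc1 and Foxc1 above Cd34. Nfia stood at place 5 in controls and place 8 in mutants. With the length of the longest transcript in place of all exonic bases it stood at place 7 in controls.

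Relatives of these factors from the same gene families gave the largest changes near this set. Of 35 relatives, 25 passed the filter, and 3 of those rose and 1 fell. Over all genes, 2.59% were called as higher and 0.404% as lower. The blocked fit called 3 relatives as higher and 3 as lower, against 9.38% of all genes called and 3.29% as lower. Runx3, the RUNX factor of T cells, sensory neurons and some epithelia (chromosome 4, 135120652 to 135177990), was at 23.9, 30.5 and 28.0 CPM in mutant libraries, against 2.38, 1.44 and 2.49 CPM in controls. Every mutant library was thus far above every control. Its log2 fold change was 3.70 (SE 0.30, adjusted p = 0.000411), and it passed in all 6 fits without 1 library (3.48 to 3.85, adjusted p at most 0.00381). Runx2, by contrast, was at 78.4 ± 12.2 CPM in mutants and 65.8 ± 6.01 CPM in controls and was not called (adjusted p = 0.583). The summed leukocyte markers overlapped between the groups (15.0 to 24.8 CPM in mutants and 14.2 to 68.7 CPM in controls), and none was called. The defining leukocyte gene Ptprc was at 0.635 ± 0.119 CPM in mutants and 1.72 ± 1.28 CPM in controls. The part of leukocytes, or of any other cell type, in the level of Runx3 was not tested.

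Sox11, a factor of neural and other embryonic progenitors (chromosome 12, 27334264 to 27342574), rose to 29.5, 49.0 and 36.7 CPM in mutant libraries, against 5.24, 3.70 and 6.35 CPM in controls. Every mutant library was above every control, with a log2 fold change of 2.91 (SE 0.29, adjusted p = 0.000893). Sox13, a SoxD factor (chromosome 1, 133382303 to 133424377), fell to 19.99, 26.4 and 16.0 CPM, against 54.8, 87.4 and 64.8 CPM in controls. Its log2 fold change was -1.73 (SE 0.25, adjusted p = 0.00656), and both SOX genes passed in all 6 fits without 1 library. Podxl, the podocalyxin gene of the CD34 family of sialomucins (chromosome 6, 31519488 to 31563981), rose to 15.4, 17.6 and 21.6 CPM in mutant libraries, against 3.81, 1.94 and 6.58 CPM in controls. The groups did not overlap. The log2 fold change of Podxl was 2.14 (SE 0.41, adjusted p = 0.0239), and it lost its call without mutant 1 (0.0601), mutant 2 (0.0844), mutant 3 (0.0636) or control 1 (0.103). The median log2 fold change of the 25 relatives was -0.12, against 0.00 over all genes tested.

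**Figure D4:**
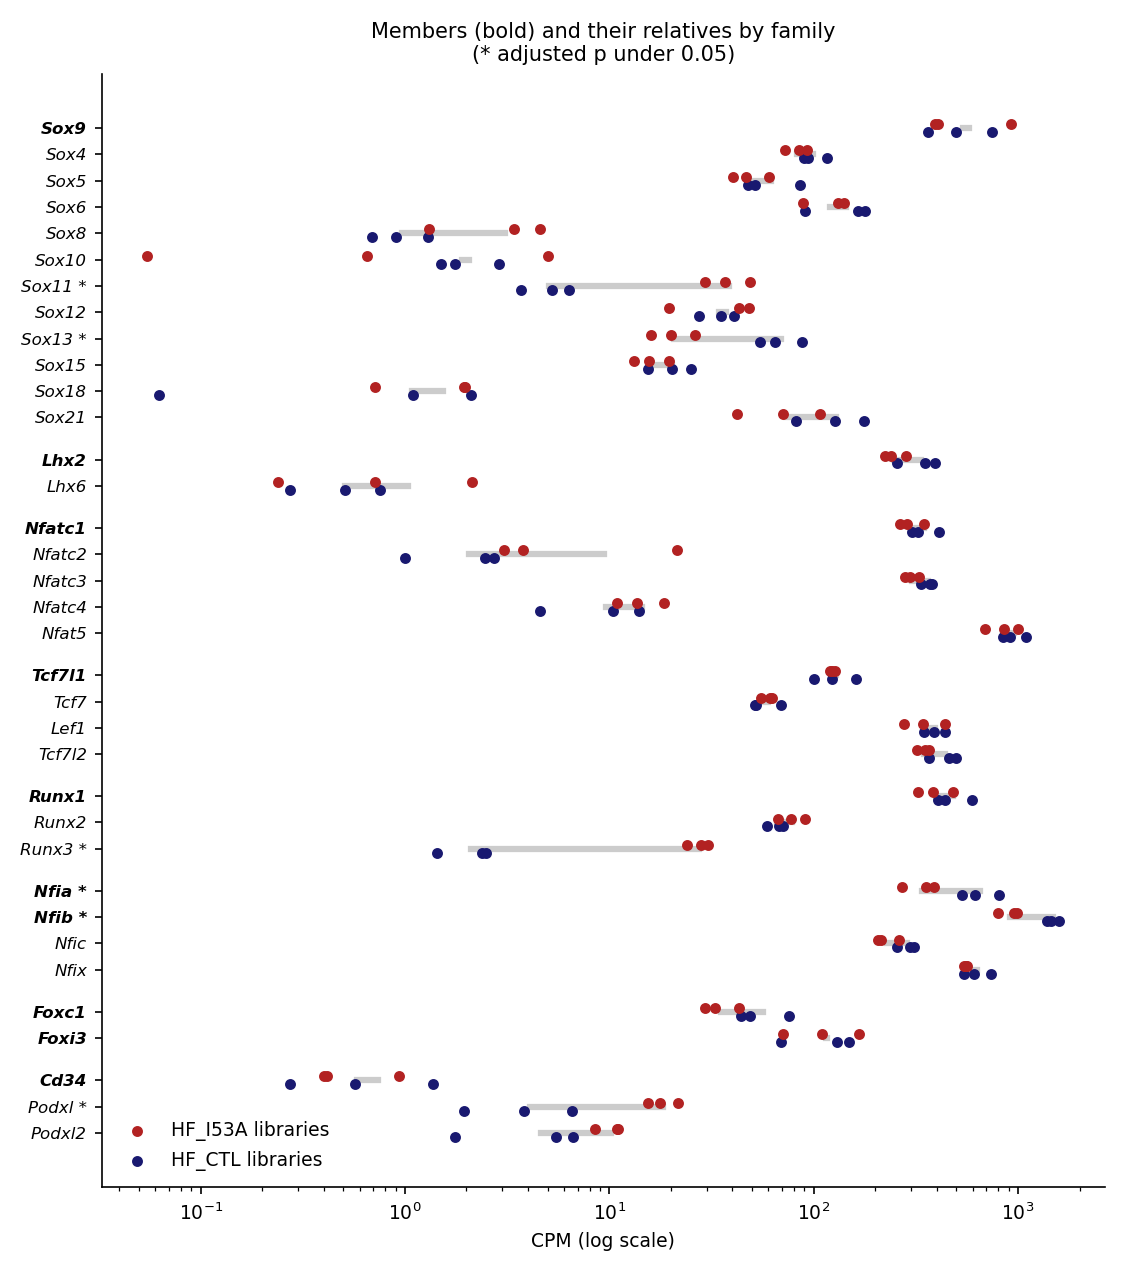
CPM on a log axis in every library for the 10 genes (bold) and their tested relatives, grouped by family, with mutant (HF_I53A) libraries as red points drawn above the control (HF_CTL) libraries in dark blue, and grey bars joining the group means. Runx3, Sox11 and Podxl were higher and Sox13, Nfia and Nfib lower in all mutant libraries, each with an asterisk for an adjusted p under 0.05.

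Among 20 tested partners and upstream signals of the factors (21 listed), 1 rose, none fell and the median log2 fold change was -0.09, where 2.59% of all genes tested were called as higher and 0.404% as lower. Bmp4, a ligand of the BMP pathway that acts upstream of Nfatc1 in the bulge, was at 68.6, 89.1 and 70.9 CPM in mutant libraries, against 36.6, 34.5 and 37.5 CPM in controls. The levels of all mutant libraries exceeded those of the controls (log2 fold change 1.07, SE 0.18, adjusted p = 0.0115). Bmp4 lost its call without mutant 2 (0.0707) or control 1 (0.0641). With the replicate number as a block 2 rose and 4 fell, where 9.38% of all genes were called and 3.29% as lower. Ppp3cc, a catalytic subunit gene of the phosphatase calcineurin, was then higher (12.7 ± 1.04 CPM in mutants against 4.98 ± 1.65 CPM in controls, with an adjusted p of 0.0622 and, blocked, of 0.0220), as it was with no filter (0.0406) and with DESeq2 (0.00552). The corepressor gene Tle1, whose product works with TCF factors, was then lower (28.8 ± 2.42 CPM in mutants against 49.3 ± 11.8 CPM in controls, with an adjusted p of 0.109 and, blocked, of 0.0308), as it was with DESeq2 (0.0308) and without control 3 (0.0219). Bmpr1a, a BMP receptor gene, was at 453 ± 7.98 CPM in mutants and 603 ± 71.8 CPM in controls and was called in the blocked fit alone (adjusted p = 0.0283, against 0.189).

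Of the 25 other follicle stem cell and placode genes, all tested, 1 rose, 2 fell and the median log2 fold change was 0.04, against 2.59% and 0.404% of all genes in those directions. The blocked fit called 5 as higher and 4 as lower, against 9.38% of all genes called and 3.29% as lower. Lrig1, a negative regulator of ErbB receptors that marks stem cells of the upper follicle (chromosome 6, 94604529 to 94700158), was at 135, 146 and 141 CPM in mutant libraries, against 241, 239 and 247 CPM in controls. The spread within each group was small beside the difference between them. The log2 fold change of Lrig1 was -0.78 (SE 0.13, adjusted p = 0.0135), and its call was lost without mutant 1 (0.0792), mutant 2 (0.0712) or control 1 (0.0654). Reads of Slc25a26, which overlaps Lrig1 on the other strand, numbered 50 to 194 per library.

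Lgr5, a receptor of Wnt-responsive follicle stem cells, was at 83.1, 85.8 and 82.0 CPM in mutant libraries, against 134, 199.98 and 199 CPM in controls. It fell without overlap (log2 fold change -1.09, SE 0.18, adjusted p = 0.0125), and A930009A15Rik, which overlaps it on the other strand, had 58 to 223 reads per library. It lost its call without mutant 1 (0.0605), mutant 2 (0.0684) or control 2 (0.0540). The chemokine gene Cxcl14 rose (log2 fold change 1.34, adjusted p = 0.0457), at 254 ± 72.3 CPM in mutants and 100.1 ± 36.3 CPM in controls. It passed without control 3 (adjusted p = 0.0206) but not without mutant 1 (0.159), mutant 2 (0.0578), mutant 3 (0.0964), control 1 (0.105) or control 2 (0.111), nor with RLE factors (0.0539) or the stricter filter (0.0511). Tnc, a matrix glycoprotein of the bulge niche, had 1255, 989.9 and 1784 CPM in mutant libraries, against 485, 433 and 871 CPM in controls. Its groups did not overlap, and it was not called (log2 fold change 1.17, adjusted p = 0.0695). It passed with the replicate number as a block (0.000214), with library totals only (0.0277), with no filter (0.0110), with DESeq2 (0.00351), with limma-voom (0.0472) and without control 3 (0.00530). Krt15, a keratin of bulge cells, was at 1100 ± 69.5 CPM in mutants and 1067 ± 257 CPM in controls (adjusted p = 0.947).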

How the data were processed

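Per the labels' protocols, cells were sorted after staining for Sca1, α6-integrin and EpCAM, and amplified cDNA was sequenced as single reads. The authors deposited whole-number read counts per gene symbol, 1 table per library, and the values show no normalization. Per the submitters' processing notes, HTSeq 0.6.1, TopHat2 2.0.13, DESeq2 1.6.3 and Cufflinks 2.2.1 were used on mm10, with no role given for each. No source used here states a strand setting, so reads of overlapping genes cannot be told apart.

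The counts were tested with edgeR 4.0.16 in R 4.3.3 (quasi-likelihood test, TMM factors, filterByExpr, group as the only term, two-sided, Benjamini-Hochberg adjustment over 14345 genes), at an adjusted p under 0.05. CPM values use TMM library sizes. The SE comes from the F statistic. Alternatives were other scalings and filters, DESeq2 1.42.0, limma 3.58.1 (voom), a replicate block and leaving out each library. The steps were tested on simulated counts that, unlike these data, held no deviation shared by same-numbered libraries. Coordinates and exonic lengths are from GENCODE M21 (GRCm38). The members and lists were chosen with earlier results of these data known. Named genes are the 10 members, Ring1, Rnf2, the sort genes, up to 4 genes per list (called ones first, then by p), and the 3 genes nearest in pattern to the member with the smallest p. Runx2, Nfic, Nfix, Krt15 and marker genes were added after their values were seen.

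No library pair agreed within sampling noise (chi-square per degree of freedom at least 25.1 over 15 pairs). Same-numbered mutant and control libraries deviated together from their group means (correlations 0.168 to 0.363, against -0.252 to 0.0891 for other pairs), above the minimum of 0.1 for pairing, which comes from the data since the labels do not say what a number marks.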

Additional observations from a re-analysis of the deposited data

How the results depend on the processing

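Of 126 comparisons of a fitted value of the 9 tested genes with its alternative, 114 kept their side of the threshold, 12 lost a call, all of Nfia or Nfib, and none gained one. Among these 9 genes 1 was called with library totals only and 1 with the stricter filter, Nfia both times, and 0 to 2 in the fits without 1 library. The median log2 fold change of the members ran from -0.46 to -0.10 in those fits. It included Cd34 without mutant 2, mutant 3, control 1 or control 3, where Cd34 passed the filter, so the set of genes was not the same throughout. Over all genes 430 were called, 1345 with the replicate block, 959 with DESeq2 and 163 to 664 without 1 library. The cause of these differences was not tested, except that leaving out a library leaves fewer samples. The block changed the call of none of the 9 genes. Cd34 could be tested without the filter (adjusted p = 0.927) and with DESeq2 (0.942). It was also tested without mutant 2 (0.984), mutant 3 (0.979), control 1 (0.840) or control 3 (0.868), and was not called. The unblocked 95% intervals of Sox9 (-0.69 to 0.89) and Foxi3 (-0.76 to 0.74) were wide. Blocked, the values were 0.04 and -0.02, each with an SE of 0.12.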
